A study of Mus musculus with 51 samples.

Results

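The 39 protein-coding Hox genes of the mouse were followed through every table of a study on the nucleolar long noncoding RNA called LoNA. They were taken as all genes named Hox followed by a cluster letter from a to d and a number, and they are 39 of the 37525 genes listed in the 5 RNA tables. The annotation places 11 in HoxA (chromosome 6, 52155590 to 52260880), 10 in HoxB (chromosome 11, 96194316 to 96368256), 9 in HoxC (chromosome 15, 102921103 to 103036852) and 9 in HoxD (chromosome 2, 74668310 to 74765142), on build mm10. Peaks overlapping these spans by at least 1 bp were taken from 4 chromatin tables, 47 of 11638 for H3K27me3, 81 of 48658 for H3K4me3, 37 of 9602 for acetylated nucleophosmin (AcNPM1) and 52 of 11745 for AcNPM1 with a p300 inhibitor.

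RNA came from C57BL/6 embryos at 18h, 20h, 22h and 24h, described as 2-cell embryos, of control or LoNA KO (knockout) genotype, and from C57BL/6 mESC (mouse embryonic stem cells) labelled 2C-like, either control or LoNA KD (knockdown). Chromatin came from C57BL/6 embryos at 24h, control or LoNA KO, and for AcNPM1 also from LoNA KO embryos given an inhibitor of p300, an acetyltransferase. The labels do not name the inhibitor, the stem cell line, the means of knockout or knockdown, or the number of embryos in a pool, and the loss of LoNA was not checked here because none of the gene names listed is LoNA. The labels list 51 samples, 38 for RNA and 13 for chromatin, while the RNA tables hold 3 columns per group at 18h, 20h and 22h, 4 at 24h and 2 for mESC, and each chromatin table holds 1 column per condition, although the labels give 3 AcNPM1 samples per condition and 1 for each histone mark.

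Hox genes encode homeodomain transcription factors that give cells their position along the body axis, and their order in a cluster follows the order in which they are used from head to tail. In embryonic stem cells the clusters are held largely silent by Polycomb: PRC2 places the repressive mark H3K27me3, PRC1 binds it, and Trithorax-type enzymes place the activating mark H3K4me3. Promoters that carry both marks are called bivalent, and the Hox clusters are the standard example of them in stem cells.

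RNA libraries held 12077497 to 18286944 counts at 18h to 22h, 13066794 to 16922914 at 24h and 16906302 to 17674190 in mESC. At 24h the 4 columns of a group formed pairs correlated above 0.99, from 0.9954 to 0.9975, against 0.5722 to 0.6324 for all other pairs of columns, so each pair was summed and n is 2 per group. In mESC the correlation of the 2 columns within a group was 0.9979 and 0.998, and they were kept apart to allow a test, so an mESC p measures a spread that may be technical. The labels do not say which RNA replicates came from separate pools, and this limit holds for every p below. The summed level of oocyte and early embryo markers was 18666 to 42737 CPM (a count scaled to an adjusted size of its library, given below) at 18h to 24h. In control mESC 12 pluripotency markers summed to 5989 and 6006 CPM, while the two-cell markers summed to only 15.6 and 16.5 CPM, of which 8 of 18 were high enough to test.

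Promoter sequences from RefSeq (GRCm38.p6) matched 22 of the 39 Hox genes, with 24 start sites. The 250 bases before the start are shown for 5 of them, 5′ to 3′ on the gene's strand, with each CG dinucleotide, the site of DNA methylation, in capitals. Hoxd1, Hoxb1 and Hoxc4 are shown because their stretch was overlapped by a peak in all 4 chromatin tables, Hoxa7 because it held most Hox reads in embryos, and Hoxa13 because it had the most CG of the Hox stretches.
Hoxd1, chr2:74762730-74762979, plus strand: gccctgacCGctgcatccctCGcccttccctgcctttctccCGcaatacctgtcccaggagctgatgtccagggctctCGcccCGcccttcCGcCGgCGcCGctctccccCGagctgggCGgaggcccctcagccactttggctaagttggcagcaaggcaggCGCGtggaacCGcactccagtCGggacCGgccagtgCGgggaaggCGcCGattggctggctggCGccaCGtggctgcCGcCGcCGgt
Hoxb1, chr11:96365508-96365757, plus strand: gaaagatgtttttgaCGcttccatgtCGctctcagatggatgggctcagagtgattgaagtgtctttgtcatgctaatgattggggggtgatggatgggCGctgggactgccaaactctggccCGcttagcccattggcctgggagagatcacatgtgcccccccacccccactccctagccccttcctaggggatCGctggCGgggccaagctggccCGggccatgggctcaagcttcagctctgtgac
Hoxc4, chr15:103034145-103034394, plus strand: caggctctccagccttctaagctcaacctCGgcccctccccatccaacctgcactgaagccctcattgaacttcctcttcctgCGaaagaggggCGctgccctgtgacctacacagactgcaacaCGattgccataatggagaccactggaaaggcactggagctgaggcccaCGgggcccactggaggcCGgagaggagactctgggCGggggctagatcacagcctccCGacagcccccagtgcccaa
Hoxa7, chr6:52218574-52218823, minus strand: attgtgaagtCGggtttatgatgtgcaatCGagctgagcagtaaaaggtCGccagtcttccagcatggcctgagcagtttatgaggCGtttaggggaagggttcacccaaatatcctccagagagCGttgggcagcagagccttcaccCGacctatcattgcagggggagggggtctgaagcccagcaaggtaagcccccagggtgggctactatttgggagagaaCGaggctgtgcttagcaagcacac
Hoxa13, chr6:52260881-52261130, minus strand: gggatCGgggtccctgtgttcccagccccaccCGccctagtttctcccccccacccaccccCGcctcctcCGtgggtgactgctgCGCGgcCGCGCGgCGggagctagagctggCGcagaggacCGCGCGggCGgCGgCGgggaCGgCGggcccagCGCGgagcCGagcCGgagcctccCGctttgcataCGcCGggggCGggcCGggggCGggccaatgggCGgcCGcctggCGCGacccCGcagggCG
The Hoxa13 stretch held 35 CG, Hoxd1 24, Hoxc4 8, Hoxa7 7 and Hoxb1 7. The 24 Hox stretches had a median of 12.5 CG, from 2 to 35, against a median of 6 over 32851 stretches of the same length before all RefSeq starts. The letters TGATNNAT, a form of the joint Hox and Pbx binding site, were found on either strand in 4 of the 24 (16.7%), Hoxb1 among them, and in 7.68% of all stretches. Of the 24, 10 were overlapped by an H3K4me3 peak, 3 by an H3K27me3 peak and 4 by an AcNPM1 peak, and 14 by no peak of any table. RefSeq starts Hoxa7 and Hoxc4 further inside the gene than the outermost start of the annotation, so the Hoxa7 stretch is not the place of the peaks described for its outermost start.

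In embryos of 18h to 22h the Hox genes were at or near the limit of detection, with the exception of Hoxa7. A median of 4 Hox genes per library reached 1 CPM, and 35, 28 and 28 of the 39 were listed at all in the tables of 18h, 20h and 22h. Hoxb8 and Hoxd4 were in none of these tables, and the highest number of the 18 libraries in which any gene other than Hoxa7 had a count was 15, for Hoxd13.

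**Figure D1:**
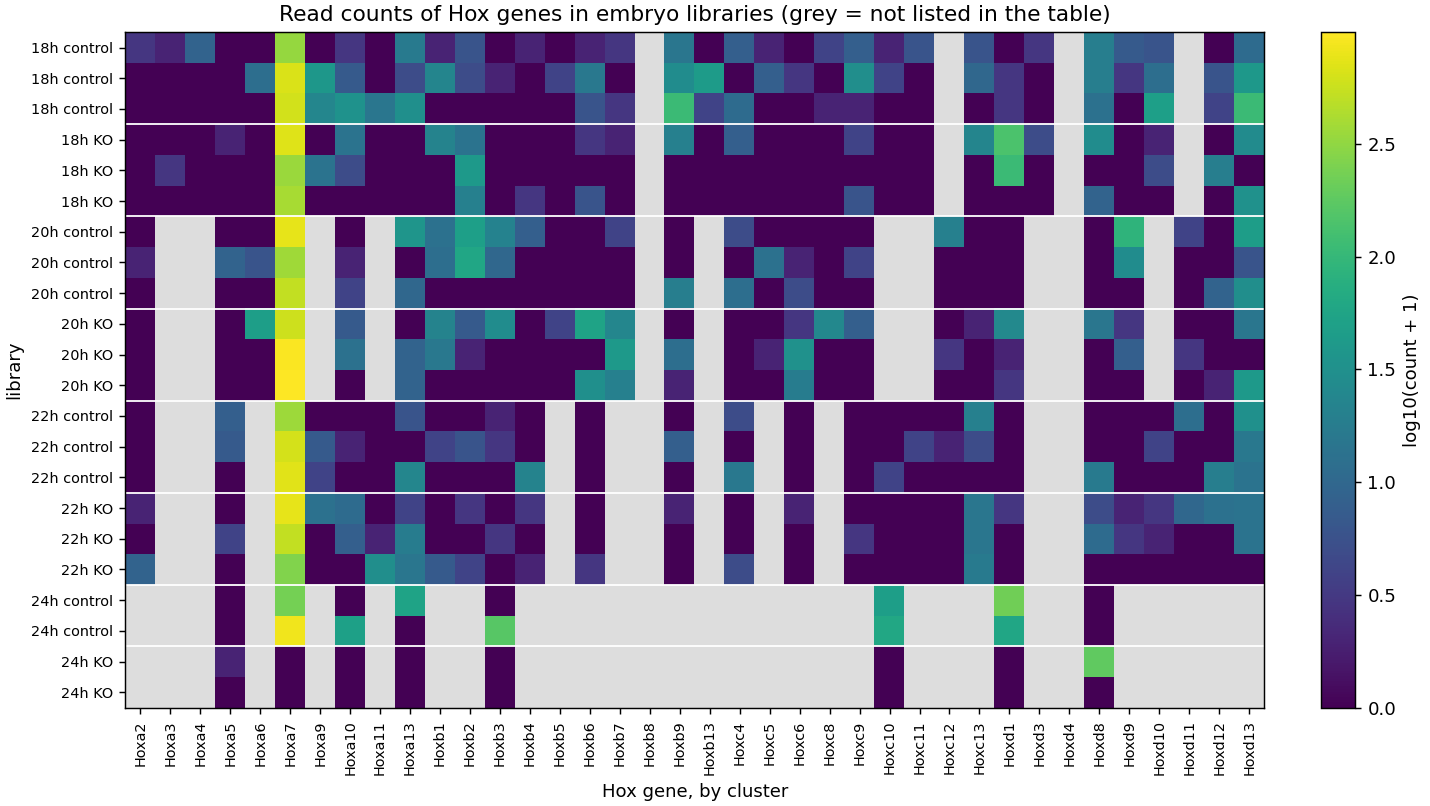
Read counts of Hox genes (columns, by cluster) in each embryo library (rows), as log10(count + 1), with genes not listed in a table in grey. The Hoxa7 column is bright in every library of 18h to 22h and in the 2 control libraries of 24h, and is at 0 in the 2 KO libraries of 24h.

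Hoxa7 (ENSMUSG00000038236, chromosome 6, 52214491 to 52221854, minus strand), a trunk-level HoxA gene, held 10498 of the 13719 Hox counts in these 18 libraries (76.5%), as reads and not per transcript length. At 18h its 3 control libraries held 334, 666 and 614 counts and its 3 KO libraries 703, 348 and 399. The control libraries averaged 35.1 ± 7.57 CPM and the KO libraries 35.4 ± 8.23 CPM (SD, n = 3), and the groups overlap. At 20h the levels were 53.3, 26.0 and 44.1 CPM in control and 36.6, 62.4 and 69.6 CPM in KO, with means of 41.1 ± 13.9 and 56.2 ± 17.3 CPM (SD, n = 3). Both of the highest libraries were KO, and the third KO library lay within the control range. At 22h they were 22.8, 37.8 and 41.7 CPM in control and 43.1, 30.1 and 15.7 CPM in KO, so that the highest and the lowest library were both KO. The log2 changes of Hoxa7 were 0.01 (SE 0.35), 0.45 (SE 0.40) and -0.20 (SE 0.39) in these 3 comparisons, with edgeR quasi-likelihood adjusted p of 0.9999, 0.998 and 0.99996. Its 586 bp overlap with the antisense gene Hoxaas3 cannot be separated, since the counting is not stated to use strand. Hoxaas3 itself was at 0.637 ± 0.196 and 0.334 ± 0.579 CPM at 18h, and at 4.58 ± 6.86 and 1.52 ± 0.88 CPM at 20h (SD, n = 3).

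**Figure D2:**
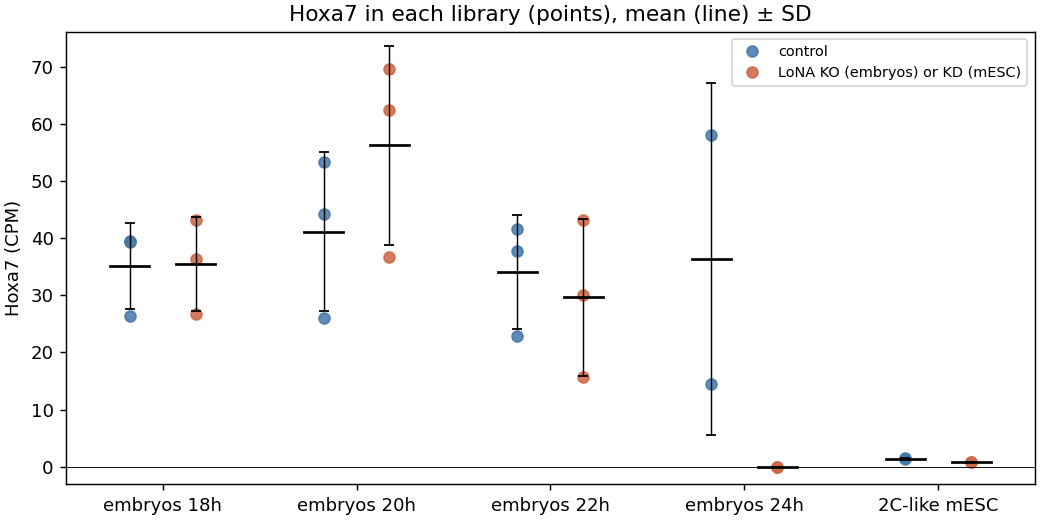
Hoxa7 level in CPM (y axis) in each library (points) of the 5 RNA comparisons, with group means (lines) and SD (bars), control in blue and LoNA KO or KD in orange. Control and KO overlap at 18h, 20h and 22h, both KO libraries are at 0 at 24h, and the mESC libraries are at 1.55 CPM or less.

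No Hox gene passed the edgeR threshold (adjusted p under 0.05) at 18h, 20h or 22h, where 7, 4 and 5 members had enough counts to test. At an unadjusted p under 0.05 there were 0, 1 and 0 Hox genes, and 5.14%, 3.66% and 3.15% of all genes. DESeq2 called 1, 0 and 0 Hox genes, and 0.48%, 0.204% and 0.0139% of all genes. Over all genes edgeR called 0.00649%, 0.0138% and 0.00656% of 15416, 14524 and 15251 tested, so these tables called almost nothing, and the Hox count is at that background. The coefficient of variation between replicates was 70.7%, 77.5% and 55.5% in the edgeR fits.

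The other Hox genes of 18h to 22h with a mean of at least 1 CPM in a group varied from library to library. Hoxd1, an anterior HoxD gene, had 138, 110 and 0 counts in the KO libraries of 18h and 0, 2 and 2 in control, and too few libraries held it for the edgeR test, while DESeq2 called it higher, as the only Hox gene among the 0.48% of genes it called. Its groups overlap, since 1 KO library is at 0. Hoxb9, a thoracic HoxB gene, had 14, 28 and 108 counts in control and 19, 0 and 0 in KO at 18h. Hoxb2, a hindbrain gene, had 5, 4 and 0 counts in control and 13, 40 and 19 in KO at 18h, and at 20h 48, 59 and 0 in control and 6, 1 and 0 in KO, so the higher group differed between the 2 times. Hoxb2 at 18h was the 1 tested Hox gene whose KO libraries all lay above control and none lay below, where 5.79% of all tested genes lay above and 7.04% below, with an edgeR adjusted p of 0.980. Hoxb7 at 20h, with 3, 0 and 0 counts in control and 23, 41 and 19 in KO, was the 1 such gene there, where 4.65% of all tested genes lay above and 5.22% below, with an edgeR adjusted p of 0.998.

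The genes at the posterior end of the clusters were also sporadic. Hoxd13, the limb and genital gene at the end of HoxD, had 10, 39 and 108 counts in control and 27, 0 and 32 in KO at 18h, and 45, 5 and 29 against 14, 0 and 40 at 20h. At 22h it had 31, 15 and 13 in control and 13, 13 and 0 in KO, lower in KO with no overlap in CPM, as were 4.5% of all tested genes, while 4.73% lay above (log2 change -1.29, SE 1.42, edgeR adjusted p 0.99996). Hoxa13 had 16, 4 and 30 counts in control and 0 in each KO library at 18h, and the same gene had 5, 0 and 23 in control and 3, 17 and 14 in KO at 22h. Hoxa9, Hoxd8 and Hoxd10 at 18h and Hoxb6, Hoxc6, Hoxd9 and Hoxa13 at 20h also reached 1 CPM in a group, and of these 7 only Hoxa9 and Hoxd8 had enough counts to be tested in edgeR and did not pass. In the 20h KO libraries Hoxb6 had 54, 0 and 30 counts and no control library had any, while Hoxd9 had 88, 28 and 0 counts in control and 2, 7 and 0 in KO.

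The 24h libraries each held counts for 7877 to 10167 genes of any kind, against 17125 to 22370 at 18h to 22h. Over all libraries 13718 genes had a count at 24h, against 29039, 26235 and 28777 at 18h, 20h and 22h. Of the 39 Hox genes 9 were listed at 24h, and Hoxa7 was read in control embryos only. Its control libraries held 235 and 844 counts (14.5 and 58.1 CPM) and both KO libraries held 0. Against a floor of 3 counts over the KO group this is 356-fold lower. Hoxd1 had 223 and 58 counts in control and Hoxc10 had 47 and 61, with 0 in both KO libraries, 92.8-fold and 35.7-fold lower by the same floor. The floor leaves out variation between libraries, so these folds do not bound the difference between the groups. Hoxa7, Hoxd1 and Hoxc10 were the 3 Hox genes with enough counts to test, and edgeR called 0 of them (n = 2 per group). The edgeR adjusted p was 0.826 for each, and the unadjusted p was 0.0306, 0.0547 and 0.0397 in that order. The share of all genes called by edgeR was 0.0% of 7425, with 383 (5.16%) at an unadjusted p under 0.05, 2 of them Hox genes. All 3 were lower without overlap, as were 17.3% of tested genes, and 16.0% were higher without overlap. With the same libraries DESeq2 called 3 Hox genes lower, Hoxa7 and Hoxd1 among them, and 16.2% of all genes in either direction.

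Both KO libraries at 0 with counts in both control libraries was a pattern of 203 of 7425 tested genes at 24h (2.73%), and the 3 tested Hox genes were among them. Hoxb3 with 163 counts and Hoxa10 with 49 were read in the second control library alone, and Hoxa13 with 53 in the first alone. Hoxd8 had 184 counts in 1 KO library and 0 elsewhere, so reads of a whole gene came and went between libraries of a group. The 24h libraries had 158% variation between replicates and 12.9% to 19.3% of counts from mitochondrial genes, against 1.48% to 9.84% in the other libraries. Neural markers summed to 93.3 and 264 CPM in control and 5.24 and 99.9 CPM in KO at 24h, and trophectoderm markers to 104 and 113 CPM against 0.0707 and 35.1 CPM. Mesoderm markers summed to 49.8 and 72.6 CPM in control and 0.636 and 9.36 CPM in KO, while fibroblast markers summed to 2.79 and 13.4 CPM against 27.5 and 85.7 CPM and oocyte markers to 24199 and 25988 CPM against 31733 and 42260 CPM. Neural, two-cell, pluripotency, cumulus, endoderm and blood markers overlapped between the groups. The part of depth, RNA quality or these markers in the Hox values was not tested. In bulk samples fewer cells with a transcript and less transcript per cell cannot be told apart.

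In LoNA KD mESC edgeR called 5 of the 8 tested HoxC genes higher and 2 lower. Over the 22 Hox genes tested in all clusters, 5 were called higher and 10 lower. Among all genes tested 38.9% were called higher and 35.3% lower. Hoxc9 rose from 0.172 and 0.631 CPM to 19.6 and 21.6 CPM, Hoxc10 from 0.976 and 0.975 to 16.1 and 20.6 CPM, and Hoxc6 from 2.35 and 1.20 to 9.97 and 9.12 CPM. All 3 had KD libraries far above both control libraries. The summed level of the 9 HoxC genes went from 10.1 ± 0.00224 to 56.3 ± 4.12 CPM, while HoxA went from 9.93 ± 0.24 to 5.10 ± 0.29 CPM, HoxB from 10.9 ± 0.97 to 4.30 ± 0.27 CPM and HoxD from 5.39 ± 0.65 to 3.45 ± 0.26 CPM (SD, n = 2).

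**Figure D3:**
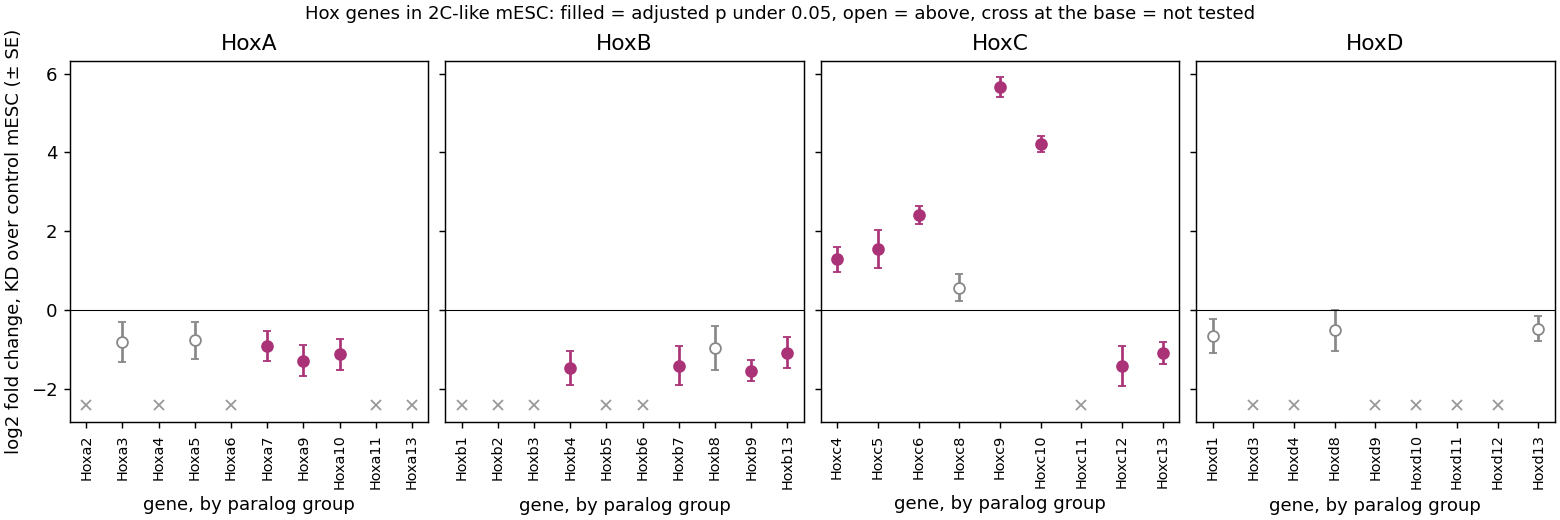
Log2 fold change (KD over control mESC, y axis) with SE for Hox genes of each cluster, ordered by paralog group (x axis), filled where the edgeR adjusted p was under 0.05, open where it was not, with a cross for genes too low to test. Hoxc4 to Hoxc10 lie above 0, with Hoxc9 at 5.66, while every tested gene plotted of HoxA, HoxB and HoxD, and Hoxc12 and Hoxc13, lie below 0.

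Of the 22 Hox genes tested in mESC, 5 were called higher and 10 lower by edgeR, against 38.9% higher and 35.3% lower among all 16406 genes tested. Calls were thus the rule in this comparison (74.2% of genes), and the number of Hox calls is near that background. The libraries did not overlap for 6 Hox genes that were higher and 13 that were lower, against 44.1% and 42.4% of all genes. The median log2 change was -0.85 over the 22 Hox genes and 0.01 over all genes. Hox genes were low, however, and low genes as a class moved down: of 3902 tested genes with a mean under 3 CPM, 36.7% were called lower and 19.3% higher, with a median of -0.48, while of the 19 Hox genes under 3 CPM 10 were lower and 2 higher, with a median of -0.95.

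The HoxC genes that rose were Hoxc4, Hoxc5, Hoxc6, Hoxc9 and Hoxc10, in the middle and at the anterior end of the cluster. Hoxc9 (ENSMUSG00000036139, chromosome 15, 102976439 to 102985099), which sets thoracic identity in spinal motor neurons, had a log2 change of 5.66 (SE 0.24, edgeR adjusted p 4.86e-15), and 219 of the 16406 tested genes had a larger one. Hoxc10 (ENSMUSG00000022484, 102966796 to 102971893), a lumbar gene, changed by 4.22 (SE 0.21, edgeR adjusted p 5.18e-14) and Hoxc6 (ENSMUSG00000001661, 102998257 to 103011881), of brachial motor neurons, by 2.42 (SE 0.22, edgeR adjusted p 2.32e-09). Hoxc5 went from 0.344 ± 0.000077 to 1.03 ± 0.28 CPM and Hoxc4 from 1.15 ± 0.57 to 2.83 ± 0.29 CPM (SD, n = 2), log2 changes of 1.56 and 1.30 with edgeR adjusted p of 0.00631 and 0.00111. Hoxc8, which lies between Hoxc9 and Hoxc6, measured 1.38 and 1.15 CPM in control and 1.46 and 2.32 CPM in KD, with an edgeR adjusted p of 0.124. The annotated Hoxc5 gene spans Hoxc6, Hoxc8 and Hoxc9 and part of Hoxc10 on the same strand, so its reads cannot be split from theirs with certainty. Hoxc9, Hoxc10 and Hoxc6 kept their call in each of 9 alternatives, where their log2 changes were 5.02 to 6.85, 4.05 to 4.41 and 2.02 to 2.98.

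At the posterior end of the same cluster Hoxc13, a hair follicle and tail gene, fell from 2.98 and 3.10 to 1.28 and 1.61 CPM, and Hoxc12 from 1.09 and 0.803 to 0.466 and 0.238 CPM. Their log2 changes were -1.07 and -1.40, with edgeR adjusted p of 0.00152 and 0.0154. Hoxc11, between Hoxc12 and Hoxc10, was too low to test. Genes within 200 kb outside the HoxC span, a window chosen after the Hox values were seen, had smaller changes. Smug1, a DNA repair glycosylase gene, changed by 0.39, Cbx5, which encodes heterochromatin protein HP1 alpha, by -0.26 and Calcoco1 by -0.70. In the same window around HoxA, 3 of 4 tested genes were called lower and 1 higher, with a median log2 change of -1.01. Around HoxB 4 of 7 were called lower and 2 higher, with a median of -0.95. Around HoxD all 3 tested genes were called higher, with a median of 0.66. Among all tested genes 35.3% were called lower and 38.9% higher, and these small counts of neighbouring genes were not tested against those shares.

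In HoxB the highest gene, Hoxb9, fell from 4.36 and 3.79 CPM to 1.34 and 1.49 CPM, a log2 change of -1.52 (SE 0.26, edgeR adjusted p 2.08e-05). It was the 1 Hox gene that DESeq2 also called lower. Hoxb4, known for blood stem cell growth, measured 1.03 and 2.06 CPM in control and 0.466 and 0.655 CPM in KD, Hoxb7 1.15 and 0.746 against 0.291 and 0.417 CPM, and Hoxb13, a tail gene, 1.38 and 1.61 against 0.874 and 0.536 CPM. The log2 changes of these 3 were -1.46, -1.40 and -1.07, with edgeR adjusted p of 0.00515, 0.0150 and 0.0175. Their KD libraries were below both control libraries in each case. Gm53, a noncoding gene within the HoxB span, was the 1 other gene of the spans high enough to test, and it fell from 9.35 ± 0.81 to 4.04 ± 0.15 CPM (SD, n = 2), a log2 change of -1.21.

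In HoxA the genes called lower included Hoxa7, Hoxa9 and Hoxa10. Hoxa9, a blood progenitor gene, fell from 1.43 and 1.72 to 0.816 and 0.477 CPM. Hoxa10, of the uterus and lumbar axis, fell from 1.49 and 1.32 to 0.699 and 0.596 CPM, and Hoxa7 from 1.55 and 1.32 to 0.758 and 0.775 CPM. The log2 changes of these 3 were -1.27, -1.11 and -0.90 in that order, with edgeR adjusted p of 0.00628, 0.0145 and 0.0357. The call on Hoxa7 was lost in 8 of 9 alternatives, with an adjusted p from 0.0340 to 0.297. In HoxD none of 3 tested genes passed in edgeR: Hoxd13 measured 1.87 ± 0.04 and 1.36 ± 0.35 CPM, Hoxd1 1.20 ± 0.49 and 0.768 ± 0.262 CPM and Hoxd8 0.631 ± 0.081 and 0.440 ± 0.285 CPM (SD, n = 2), with log2 changes of -0.46, -0.65 and -0.51.

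The highest Hox gene in control mESC was thus Hoxb9 and in KD cells Hoxc9, in CPM and not per length, and the lowest tested gene was Hoxc5 in control. DESeq2 called 4 Hox genes higher (Hoxc4, Hoxc6, Hoxc9 and Hoxc10) and 1 lower (Hoxb9) in mESC, where it called 27.9% of all genes higher and 19.8% lower (47.7% in all), so the falls of the other 9 rest on edgeR. With any 1 library left out fewer Hox genes were called lower, and without KD library 1 fewer were called higher. A smaller share of all genes was called in those fits too, and each leaves a lone library in a group.

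Cofactors and regulators of Hox genes, from lists chosen with results of these data known, were tested in mESC, where 38.9% of all genes were called higher and 35.3% lower. Of 9 cofactors of the TALE class, which bind DNA beside Hox proteins, 7 rose and 0 fell, with a median log2 change of 0.69 against 0.01 over all genes. Meis2 rose from 2.78 ± 1.09 to 32.1 ± 3.54 CPM and Meis1 from 2.38 ± 0.04 to 10.8 ± 0.50 CPM (SD, n = 2), with edgeR adjusted p of 9.80e-15 and 2.60e-10. Meis3, Pbx3 and Pbx2 had log2 changes of 1.43, 0.90 and 0.69. Of 12 PRC2 genes 8 fell and 1 rose, with a median of -0.52, among them the catalytic Ezh2 (-0.35), Eed (-0.37) and Suz12 (-0.68). Of 20 PRC1 genes 9 rose and 8 fell: Bmi1, a PCGF subunit, rose from 7.49 ± 0.69 to 103.1 ± 6.36 CPM, and the chromodomain gene Cbx8 had a log2 change of 3.04, while the ubiquitin ligase Rnf2 was at 0.04 (edgeR adjusted p 0.420).

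The TALE, PRC2 and PRC1 counts are near the share of all genes called in either direction, 74.2%. By direction, 8 of 12 PRC2 genes were lower, where 35.3% of all genes were. Of the 9 TALE genes 7 were higher, where 38.9% of all genes were. These differences in direction were not tested. Against the same background, of 15 Trithorax-type activators 10 fell and 3 rose, with a median of -0.24, and Kmt2a, the methyltransferase that maintains Hox expression, was at -0.11 (edgeR adjusted p 0.0386). Of 17 tested retinoic acid genes 11 fell and 3 rose, the retinol transporter Stra6 (log2 change 3.44) among the latter, and of 13 tested axial patterning genes 7 fell and 2 rose, with Gdf11, which times the posterior Hox genes, at 2.55. Of the caudal group Cdx1 was the only gene tested, at -1.15, and Cdx2, an activator of Hox genes, was not high enough to test. None of these genes passed the edgeR threshold at 18h, 20h, 22h or 24h. At 24h Suz12 measured 535 ± 356 and 963 ± 12.7 CPM, Ezh2 83.6 ± 62.5 and 100.9 ± 17.6 CPM and Eed 302.0 ± 3.36 and 326.0 ± 143.1 CPM (SD, n = 2) in control and KO.

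The mESC groups also differed in markers of cell type, where edgeR called 38.9% of all tested genes higher and 35.3% lower. The 13 neural and neural crest markers summed to 159 and 162 CPM in control and 1660 and 1752 CPM in KD, with 8 of 11 tested members higher and 2 lower, and 12 of 12 pluripotency markers fell, from 5989 and 6006 to 2940 and 3007 CPM. The 11 mesoderm markers summed to 14.6 and 17.9 CPM in control and 290 and 314 CPM in KD, although of 9 tested 2 rose and 4 fell. The 11 fibroblast markers summed to 1016 and 1018 CPM and to 1445 and 1474 CPM, although 9 fell and 1 rose. The two-cell markers summed to 15.6 and 16.5 CPM in control and 6.41 and 7.03 CPM in KD, with 8 of 8 tested lower. Trophectoderm, cumulus and oocyte markers were lower in sum too. Of 9, 9 and 5 tested, 7, 6 and 3 were lower and 1, 0 and 1 higher. Endoderm and blood markers were higher in sum, although of 7 and 3 tested 4 and 2 were lower and 2 and 1 higher. The part of these cell types in the HoxC values was not tested.

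Chromatin of 24h embryos was compared by called peaks, with read counts of both conditions at the same regions and RPM (the reads in a peak scaled to the total reads of its library). Totals in control and KO were 47253912 and 50153338 reads for H3K27me3, 66601350 and 49648616 for H3K4me3 and 32077472 and 60297174 for AcNPM1, and with inhibitor 37816980. Each condition is 1 column, for AcNPM1 too, and how the labelled samples enter it is not given in the sources used here, so there is no replicate check and no test, and an interval below is an exact Clopper-Pearson 95% interval that covers counting error only. The H3K27me3 and H3K4me3 columns carry unexplained initials, and which is KO was taken from the order in which each table's title and ratio name them. The series' own text names H3K27ac, while the labels and tables name H3K27me3 and H3K4me3.

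**Figure D4:**
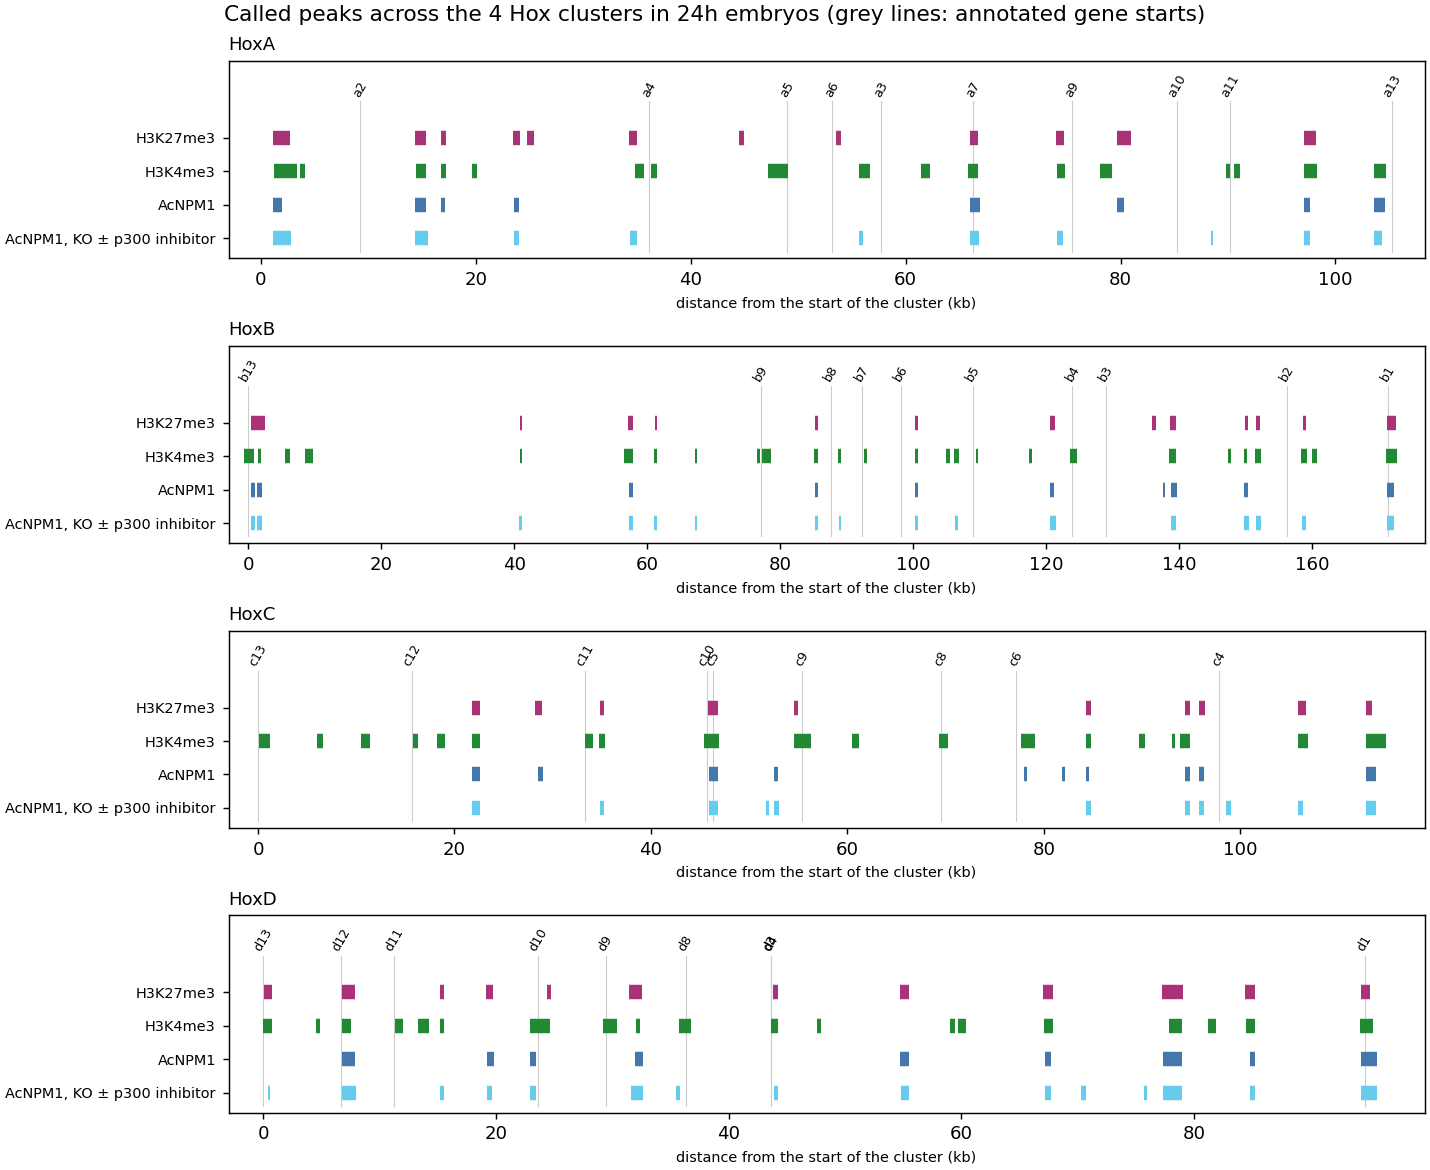
Peaks of the 4 chromatin tables (coloured bars, one row per table) along each Hox cluster, against distance from the start of the cluster in kb, with annotated starts of Hox genes as grey lines. Peaks are short and scattered, and many H3K27me3 and AcNPM1 bars stand at the same places, as at Hoxc10 and Hoxd12.

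Each cluster carried all 3 signals as short separate peaks. H3K27me3 had 12, 13, 10 and 12 peaks in HoxA, HoxB, HoxC and HoxD, with a median width of 661 bp in all, and covered 9.36%, 5.51%, 5.50% and 9.87% of the spans. H3K4me3 had 17, 26, 19 and 19 peaks covering 11.1% to 15.6%, and AcNPM1 8, 10, 10 and 9 peaks covering 3.57% to 7.90%. Within 1 kb of the outermost annotated start, 15 of the 39 Hox genes had an H3K27me3 peak (38.5%, against 15.8% of 19983 protein-coding genes), 30 had an H3K4me3 peak (76.9% against 70.3%) and 12 had an AcNPM1 peak (30.8% against 14.0%). Both histone marks stood at 14 Hox starts (35.9% against 15.2%), and all 3 signals at 10 (25.6% against 11.9%), among them Hoxa7, Hoxb1, Hoxb13, Hoxc10, Hoxd1 and Hoxd12. Neighbouring starts share peaks, as Hoxc5 and Hoxc10 do, so these starts are not independent, and the differences were not tested.

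The H3K27me3 and AcNPM1 peaks often lay on the same stretch. Of 37 AcNPM1 peaks in the clusters 31 overlapped an H3K27me3 peak (83.8%), close to the 78.2% of all AcNPM1 peaks, and 24 overlapped both histone marks (64.9% against 62.5%). In 10 of 31 overlapping pairs of H3K27me3 and AcNPM1 peaks in the clusters the starts lay within 10 bp of each other (32.3%, against 16.8% of 7567 pairs genome-wide), and in 3 they were the same base. Control log2 RPM of the pairs correlated at 0.74 over the 31 Hox pairs and 0.88 over all 7567. That of H3K4me3 and AcNPM1 correlated at 0.31 over 27 Hox pairs and 0.41 over all 7168. RPM is not scaled to peak width, and widths of the H3K27me3 and AcNPM1 pairs correlated at 0.50 and 0.67. The H3K27me3 and AcNPM1 log2 ratios of KO to control correlated at -0.04 over the 31 AcNPM1 peaks in the clusters that overlap H3K27me3. Points of such a pair share their position in the genome, and those of a table share 1 library. Of the 81 H3K4me3 peaks in the clusters 37 overlapped an H3K27me3 peak (45.7%), against 16.6% of all H3K4me3 peaks.

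H3K27me3 at the Hox clusters differed little between KO and control. None of the 47 peaks was past 2-fold in either direction, and 0.249% of all peaks were, while past 1.5-fold lay 0 of the 47 and 4.85% of all. The log2 ratios of the Hox peaks ran from -0.37 to 0.40 with a median of 0.15, against a median of 0.06 over all peaks, and 39 of the 47 (83.0%) were above 0, against 59.3% of all peaks. Summed over the 35.4 kb that the peaks covered, RPM was 358.0 in control and 393.7 in KO, a ratio of 1.10 (interval 1.08 to 1.12), and 1.03 (1.02 to 1.03) over all peaks of the table. By cluster the ratio was 1.10 (1.06 to 1.15) in HoxA, 1.04 (1.003 to 1.09) in HoxB, 1.13 (1.08 to 1.19) in HoxC, where all 10 peaks were above 0, and 1.13 (1.08 to 1.17) in HoxD.

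The H3K27me3 peak with the most reads in each cluster, over both columns, lay in the same small range. In HoxD the peak at chr2:74745546-74747383, inside the annotated Hoxd3 gene, had 983 reads in control and 1266 in KO, 20.8 and 25.2 RPM, a ratio of 1.21 (1.12 to 1.32). In HoxB the peak at chr11:96194702-96196833 inside Hoxb13 had 21.4 and 21.7 RPM, a ratio of 1.01 (0.929 to 1.10). In HoxA the peak at chr6:52169926-52170919 inside the annotated Hoxa3 gene had 14.0 and 13.9 RPM, and in HoxC the peak at chr15:102966929-102967897 over the start of Hoxc5 and within Hoxc10 had 11.1 and 11.5 RPM. The peak over the outermost Hoxa7 start, chr6:52221538-52222346, had 430 and 526 reads, 9.10 and 10.5 RPM, a ratio of 1.15 (1.01 to 1.31), chosen because Hoxa7 is the gene read in these embryos. The peak over the Hoxd1 start, which takes in the whole Hoxd1 sequence shown above, had 369 and 471 reads, a ratio of 1.20 (1.05 to 1.38), and the one over the Hoxb1 start 801 and 862 reads, a ratio of 1.01 (0.920 to 1.12).

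**Figure D5:**
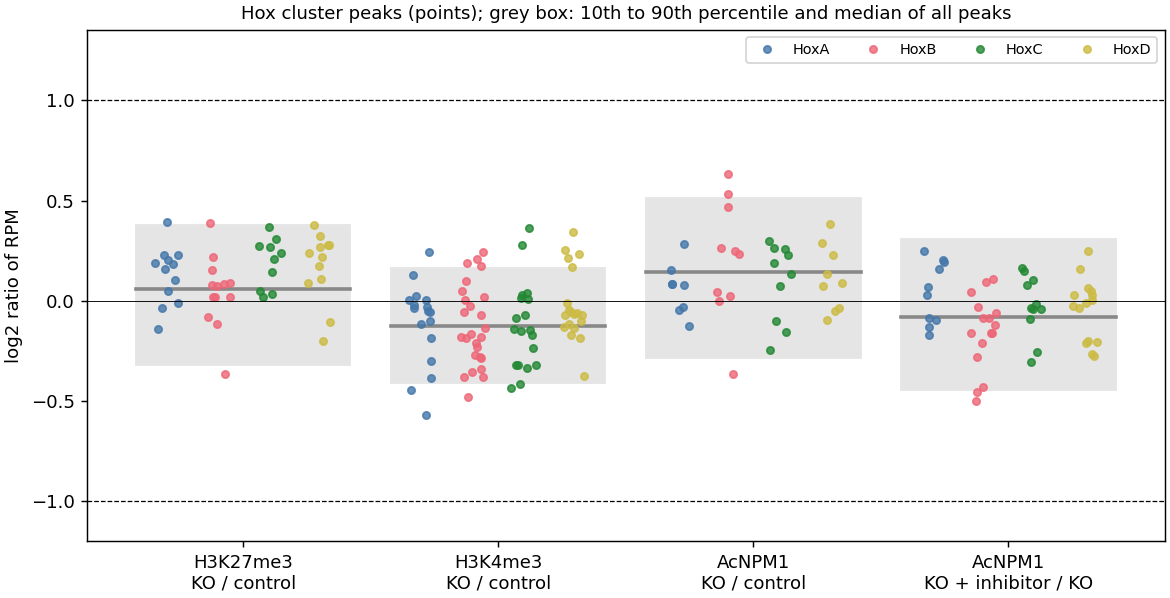
Log2 ratio of RPM (y axis) for each Hox cluster peak (points, coloured by cluster) in the 4 chromatin comparisons, with the 10th to 90th percentile and the median of all peaks of each table as grey boxes and lines. No Hox peak reaches the dashed lines at 2-fold, and the Hox points lie mostly within the grey boxes.

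H3K4me3 in the clusters shifted with the rest of its table. None of 81 Hox peaks was past 2-fold, and 0.0781% of all peaks were, while past 1.5-fold lay 0 of the 81 and 3.37% of all. The median log2 ratio was -0.09 over the Hox peaks and -0.13 over all peaks, and 24 of the 81 (29.6%) were above 0 against 26.8% of all. Summed over 67.8 kb, RPM was 591.9 in control and 546.6 in KO, a ratio of 0.923 (0.909 to 0.938), and 0.929 (0.929 to 0.930) over all peaks. The ratio was 0.916, 0.889 and 0.924 in HoxA, HoxB and HoxC and 0.985 (0.951 to 1.02) in HoxD. The H3K4me3 peak with the most reads in HoxB lay between Hoxb13 and Hoxb9, chr11:96250868-96252214, with 21.1 and 19.2 RPM, that in HoxC over the RefSeq Hoxc4 start shown above, chr15:103033899-103035930, with 17.5 and 14.0 RPM, a ratio of 0.799 (0.727 to 0.879), and that in HoxD over the Hoxd1 start, with 11.8 RPM in both. At the outermost Hoxa7 start H3K4me3 measured 13.1 and 10.1 RPM, a ratio of 0.765 (0.684 to 0.855), and at the Hoxb1 start 14.3 and 10.3 RPM, a ratio of 0.718 (0.643 to 0.800).

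AcNPM1 in the clusters also followed the whole table. None of 37 Hox peaks was past 2-fold in KO against control, and 0.614% of all peaks were, while past 1.5-fold lay 1 of the 37 and 8.97% of all. The median log2 ratio was 0.09 over Hox peaks and 0.14 over all, 26 of 37 (70.3%) were above 0 against 68.4% of all, and the ratio of summed RPM over 25.3 kb was 1.10 (1.08 to 1.13) against 1.11 (1.11 to 1.11). The ratio was 1.17 (1.12 to 1.23) in HoxB and 1.03 (0.986 to 1.08) in HoxA. The peaks with the most reads in each cluster, over both columns, were those inside Hoxd3, with 24.4 and 28.6 RPM, inside Hoxa3, with 19.7 and 20.9 RPM, over the Hoxb1 start, with 17.5 and 20.7 RPM, and over the RefSeq Hoxc4 start, with 11.9 and 14.3 RPM. At the outermost Hoxa7 start AcNPM1 measured 12.7 RPM in control and 11.6 RPM in KO, a ratio of 0.916 (0.809 to 1.04).

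The comparison of KO embryos with and without the p300 inhibitor uses the same KO library as the one before, with equal KO reads at all 2317 regions that the tables share, so their directions are not independent. None of 52 Hox peaks was past 2-fold, and 0.528% of all peaks were, while past 1.5-fold lay 0 of the 52 and 7.11% of all. The median log2 ratio was -0.04 over Hox peaks and -0.08 over all, and 20 of 52 (38.5%) were above 0 against 37.9% of all. Summed RPM was 461.9 without and 441.7 with inhibitor, a ratio of 0.956 (0.938 to 0.975), and 0.942 (0.941 to 0.944) over all peaks. By cluster it was 0.915 (0.882 to 0.949) in HoxB, 0.954 (0.921 to 0.988) in HoxD, 0.960 (0.920 to 1.002) in HoxC and 1.01 (0.971 to 1.05) in HoxA. The peaks with the most reads in each cluster, over both columns, were those inside Hoxd3 with 28.3 and 24.5 RPM, inside Hoxa3 with 22.8 and 20.3 RPM, over the Hoxb1 start with 20.5 and 18.3 RPM, and at Hoxc10 with 13.7 and 13.3 RPM.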

How the data were processed

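For RNA the authors deposited unnormalized gene counts, 1 table per time and 1 for mESC. The submitters' processing notes give the build mm10 and, among their tools, HTSeq 0.6.0, HISAT2 2.1.0 and Bowtie2 2.2.3. Each deposited table also has the authors' mean signal per gene and their fold change, given as a ratio or, at 24h, as log2, and neither was used here. The deposited peak tables hold read counts, RPM, the total reads of each condition, another quantity constant within a column, and the authors' log2 ratio, with MACS2 2.1.1, Bowtie2 2.1.0 and bcl2fastq 2.2 among the tools of these notes. RPM recomputed from reads and totals differed by at most 5e-05. Whether peaks were called on pooled samples is not given in the sources used here.

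Counts were tested over all genes of a table with edgeR 4.0.16 (TMM, filterByExpr, quasi-likelihood test, Benjamini-Hochberg adjustment, threshold 0.05) in R 4.3.3, which was tested on simulated data, with DESeq2 1.42.0 as an alternative. CPM uses TMM-scaled library sizes, summed over the genes that passed the filter, and the floor for a group at 0 was 3 counts over the group. Columns were assigned to groups by prefix and table, and none to a labelled replicate. Peaks past 2-fold were counted without a test, and intervals came from SciPy 1.17.1. Alternatives changed the tool, scaling, filter, threshold, libraries, fold, minimum reads and span.

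The members and the gene lists were chosen with earlier results of these data known. Named are each Hox gene past the threshold, Hox genes with a mean of at least 1 CPM in an embryo group, in mESC the 12 largest changes past the threshold with the highest and lowest level, up to 6 genes per list past the threshold plus Ezh2, Eed, Suz12, Kmt2a, Cdx2 and Rnf2, and the Hox peak with the most reads per table and cluster. Some genes that this rule covers are not reported here, though they are in the counts. Other named genes and peaks were chosen after their values were seen. Other marker lists were of oocyte, two-cell, trophectoderm, endoderm, blood and cumulus cells.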

Additional observations from a re-analysis of the deposited data

Results flagged for a closer look

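Hoxc10 moved in opposite directions in 2 comparisons, with no overlap between groups in either: its log2 change was 4.22 in mESC, where both KD libraries were above both control libraries, and -8.77 at 24h in embryos, where both KO libraries were at 0 and the fitted value depends on the prior count. Hoxb7 had a log2 change of 4.53 at 20h in embryos, where all 3 KO libraries were above control, and of -1.40 in mESC, where both KD libraries were below control. Without overlap, 44.1% of all tested genes lay above control and 42.4% below in mESC. These shares were 16.0% above and 17.3% below at 24h, and 4.65% above and 5.22% below at 20h. The difference between embryos and mESC was not tested for either gene. At an edgeR adjusted p under 0.05 the mESC changes passed and the embryo changes did not. Groups of 2 or 3 libraries are too small for the check on single outlying samples, so that check was not made.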

How the results depend on the processing

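In edgeR no Hox gene was called at 18h, 20h or 22h with other size factors, without a filter on low counts, at a threshold of 0.01 or with any library left out, and DESeq2 called 1 at 18h (Hoxd1). At 24h DESeq2 called 3 Hox genes, edgeR with every column as a library called 3, and DESeq2 with every column as a library, an alternative chosen after seeing the data, called 4, with Hoxa7, Hoxc10 and Hoxd1 among them. These alternatives called 16.2%, 12.1% and 32.6% of all genes, against 0% in edgeR with summed columns. Fits with every column as a library count the near-identical columns of a pair as replicates, so their calls may rest on repeats of 1 library. In mESC, where 15 Hox genes were called (5 higher, 10 lower), DESeq2 called 5, with 1 lower, without a filter on low counts 6 were called lower, Hoxb5 among them, which is too low to test otherwise, and at a threshold of 0.01 5 were called lower. With 1 library left out, the lone library being assumed to vary like the others, the mESC calls ran from 8 to 13, with 3 to 5 higher and 3 to 8 lower. The median number of Hox genes detected per library rose from 4 to 7 at 18h to 22h and from 11 to 19.5 in mESC at 0.5 CPM in place of 1 CPM. At 1.5-fold 1 Hox peak of AcNPM1 passed, and the other alternatives for peaks gave 0 in every table. Of 388 alternatives for single Hox genes 335 kept their side of the threshold, 44 lost the call and 9 gained it. No called gene changed direction, while some genes that were not called did, such as Hoxb8 and Hoxd8 in mESC. No paired analysis was possible because the columns carry no replicate number that ties them to the labels. Most Hox genes rest on few reads in the embryo libraries, and the chromatin tables have 1 column per condition.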

Other observations

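The AcNPM1 peak with the largest change in the Hox clusters, chosen after its values were seen, lay inside the annotated Hoxb3 gene, 5904 bp from the Hoxb2 start, at chr11:96344119-96344621. It had 173 reads in control and 504 in KO, 5.39 and 8.36 RPM, a ratio of 1.55 (exact 95% interval 1.30 to 1.85, counting error only). It was the 1 Hox peak past 1.5-fold in any table. In the table of the inhibitor the peak at chr11:96344119-96344855 measured 10.7 RPM in KO and 7.80 RPM in KO with inhibitor, a ratio of 0.728 (0.632 to 0.837). Both values share the KO library.

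The H3K4me3 peak that begins 76 bp after the Hoxc13 start had the highest ratio among the 81 Hox peaks of that mark, with 651 reads in control and 625 in KO, 9.77 and 12.6 RPM, a ratio of 1.29 (1.15 to 1.44). The lowest was inside the annotated Hoxa3 gene, at chr6:52172375-52172835, with 673 and 338 reads, 10.1 and 6.81 RPM, a ratio of 0.674 (0.589 to 0.769). The H3K27me3 and AcNPM1 peaks at that place start at the same base and had ratios of 0.908 (0.764 to 1.08) and 1.06 (0.894 to 1.26).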
